A study of Mus musculus with 5 samples.

Results

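The regions described here carried a peak of exactly 3 of 4 antibodies against NKX2-1. Merging the peaks of the 4 lists wherever they shared 1 bp or more gave 68919 regions. Of these, 9284 had peaks of 3 antibodies and none of the fourth, which is 13.5% of all regions (exact Clopper-Pearson interval at 95%, 13.2% to 13.7%). Another 31606 regions had peaks of all 4 antibodies, 10634 had peaks of 2 and 17395 had a peak of 1. The peak calls chose these regions, so their pileup, fold enrichment, q-value and length describe them and test nothing. Their place in the genome and their promoter sequence took no part in the choice. Their distance from other regions entered it only in that they cannot overlap a region of all 4 or a peak of the missing antibody.

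The study measured binding by chromatin immunoprecipitation and sequencing (ChIP-seq) in wild-type mice at postnatal day 10, on the whole lung. Each of the antibodies Abcam133737, Millipore07-601, Abcam76013 and Abcam133638 had 1 library, set against 1 input library without immunoprecipitation. The labels' protocol pools chromatin from aliquots of nuclei, so all libraries may come from 1 preparation, and no value below has a replicate error. Whole lung mixes many cell types, so a weak peak from binding in few cells and a weak peak from weak binding in many cells cannot be told apart.

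NKX2-1 is a homeodomain transcription factor that the lung epithelium needs to form and to keep its identity, in the flat alveolar type 1 cells that exchange gas as well as in the surfactant-making alveolar type 2 cells. CTCAAG is the core of some known sites for it, and other forms were not searched here. In ChIP-seq, an antibody pulls down the DNA fragments its target is fixed to, and a peak is called where the pile of fragments (the pileup) passes a statistical threshold over the local background. An antibody without a peak in a region therefore missed that threshold there, which does not show that it gave no signal.

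The promoter sequences of 12 such regions show the DNA they covered at gene starts. For each missing antibody they are the 3 of highest mean pileup among regions with a mean fold of at least 3, a named gene and a summit whose surroundings lie within the RefSeq window. The mean summit is the point of highest pileup averaged over the present antibodies. The sequences are the bases up to 60 on each side of it, and end before a listed transcription start of the gene. They run 5′ to 3′ on the strand of the gene, come from RefSeq (build GRCm38.p6, with the coordinates of mm10), and carry CTCAAG or its other strand CTTGAG in capitals. Without a peak of Abcam133737 were the promoters of Pias3, which encodes a SUMO ligase that inhibits STAT3 (chr3:96696252-96696372, plus strand), of Fzd4, a Frizzled receptor for Wnt ligands and Norrin (chr7:89404241-89404361, plus strand), and of Gtf2h5, a subunit of the transcription factor TFIIH (chr17:6079707-6079827, plus strand). Without Millipore07-601 were those of Nol9, which acts in ribosomal RNA processing (chr4:152039258-152039337, plus strand), of Igf2r, the receptor that takes up IGF2 (chr17:12769711-12769831, minus strand), and of the kinase gene Pdik1l (chr4:134287869-134287989, minus strand). Without Abcam76013 were those of Mab21l3 (chr3:101836224-101836297, minus strand), of Rilpl2 (chr5:124478337-124478457, minus strand) and of Oaz2, an ornithine decarboxylase antizyme gene (chr9:65676466-65676547, plus strand). Without Abcam133638 were those of the histone H3 gene H3c11 (chr13:21783398-21783487, minus strand), of Hbs1l (chr10:21295795-21295915, plus strand) and of Acsf3, which encodes a mitochondrial malonyl-CoA synthetase (chr8:122775333-122775453, plus strand).
Pias3: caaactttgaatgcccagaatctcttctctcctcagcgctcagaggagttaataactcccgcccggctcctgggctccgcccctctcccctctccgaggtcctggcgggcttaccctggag
Fzd4: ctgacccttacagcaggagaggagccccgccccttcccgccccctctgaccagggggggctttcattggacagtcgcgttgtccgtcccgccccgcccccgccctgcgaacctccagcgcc
Gtf2h5: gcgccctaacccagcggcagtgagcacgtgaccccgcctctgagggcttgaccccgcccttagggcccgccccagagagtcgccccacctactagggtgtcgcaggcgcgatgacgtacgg
Nol9: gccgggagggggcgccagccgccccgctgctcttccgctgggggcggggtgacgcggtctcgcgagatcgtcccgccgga
Igf2r: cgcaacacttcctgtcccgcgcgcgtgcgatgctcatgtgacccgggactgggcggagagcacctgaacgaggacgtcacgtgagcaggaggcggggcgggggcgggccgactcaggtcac
Pdik1l: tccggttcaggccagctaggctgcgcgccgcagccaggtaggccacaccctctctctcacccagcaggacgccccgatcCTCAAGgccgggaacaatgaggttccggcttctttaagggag
Mab21l3: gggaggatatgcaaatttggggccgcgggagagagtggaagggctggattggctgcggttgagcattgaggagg
Rilpl2: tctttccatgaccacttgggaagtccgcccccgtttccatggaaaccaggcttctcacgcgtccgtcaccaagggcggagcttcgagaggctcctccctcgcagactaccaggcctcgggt
Oaz2: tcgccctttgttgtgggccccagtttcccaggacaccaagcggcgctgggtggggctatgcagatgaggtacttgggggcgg
H3c11: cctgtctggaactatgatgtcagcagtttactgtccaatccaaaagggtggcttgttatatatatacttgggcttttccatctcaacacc
Hbs1l: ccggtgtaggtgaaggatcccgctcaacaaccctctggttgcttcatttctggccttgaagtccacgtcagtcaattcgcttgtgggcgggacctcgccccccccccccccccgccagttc
Acsf3: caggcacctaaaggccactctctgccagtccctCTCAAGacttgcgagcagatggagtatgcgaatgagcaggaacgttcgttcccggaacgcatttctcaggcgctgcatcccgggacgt

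CTCAAG stood in the stretches at Pdik1l and Acsf3 and not in the other 10. The GC content of the stretches ran from 42.2% at H3c11 to 80% at Nol9. At Nol9 another listed start lay 3 bp from the mean summit. The mean summits at Nol9 and Mab21l3 lay inside the gene, 57 and 46 bp from its end, so both stretches include bases of the gene. The Pias3 region had pileups of 53 tags with Millipore07-601, 42 with Abcam76013 and 58 with Abcam133638, and a peak of the missing Abcam133737 lay 0.331 kb away. At Fzd4 the same antibodies gave 41, 33 and 51 tags, and the nearest Abcam133737 peak was 14.6 kb off. At Gtf2h5 they gave 39, 37 and 48 tags. At Nol9, Abcam133737 gave 22 tags, Abcam76013 27 and Abcam133638 35. At Igf2r, Abcam133737 gave 23 tags, Abcam76013 17 and Abcam133638 40. At Pdik1l they gave 23, 24 and 33, and a region of all 4 antibodies lay 0.255 kb from it. In all 6 of these regions Abcam133638 was the highest of the present antibodies. At Rilpl2, Abcam133737 gave 35 tags, Millipore07-601 56 and Abcam133638 48. At Oaz2 they gave 31, 31 and 55, and at Mab21l3 44, 49 and 60. Mean folds at Pias3, Mab21l3 and Rilpl2 were 3.83, 4.79 and 6.70, on mean local backgrounds of 12.6, 11.9 and 6.88 tags. At Acsf3, Abcam133737 gave 18, Millipore07-601 20 and Abcam76013 25. H3c11 had 30, 30 and 21 tags with these last 3 antibodies, in the same order, and Hbs1l 23, 22 and 20.

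Which antibody was missing was very unequal. Abcam133737 lacked the peak in 4321 of the 9284 regions (46.5%, interval 45.5% to 47.6%), which is 6.27% of all 68919 regions. Abcam76013 lacked it in 4089 (44.0%, interval 43.0% to 45.1%), or 5.93% of all. Millipore07-601 lacked it in 468 (5.04%, interval 4.60% to 5.51%), or 0.679% of all, and Abcam133638 in 406 (4.37%, interval 3.97% to 4.81%), or 0.589% of all. Either of the antibodies with the shorter lists, Abcam133737 with 40877 peaks and Abcam76013 with 41296, was thus the missing one in 90.6% of cases, while the longer lists of Millipore07-601 and Abcam133638 held 57763 and 57891 peaks. The rule counts missing peaks, so list length enters these counts directly. With only peaks of a fold of at least 5, 6011 regions had exactly 3 antibodies. When each list was held to its 10000 peaks of highest fold, 1655 regions had exactly 3 antibodies, and the missing one was Abcam133737 in 25.9%, Millipore07-601 in 22.8%, Abcam76013 in 24.4% and Abcam133638 in 26.9%. The peak lists came from similar depths, between 43031331 and 46547989 filtered tags.

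Regions missed by 1 antibody were short and weak beside regions of all 4. Their median length was 283 bp (quartiles 244 and 351 bp), against 409 bp with all 4 antibodies, 242 bp with 2 and 184 bp with 1. Their mean pileup, scaled to 10000000 filtered tags of each library and averaged over the present antibodies, had a median of 5.08 against 8.01 with all 4. Their mean fold enrichment, the authors' ratio of pileup over local background, had a median of 4.69 (quartiles 4.21 and 5.28) and reached at most 9.61. With all 4 antibodies the median was 7.14 and the maximum 51.05. A mean fold over 8 was found in 22 of the 9284 regions (0.237%) and in 40.7% of regions of all 4. The lowest −log10 q among the present peaks was under 5 in 48.3% of them, against 15.8% with all 4. Extra peaks of an antibody in the same region were present in 2.33%, against 8.33%. The summits of the present antibodies were about as close together, with a median spread of 49 bp against 46 bp in regions of all 4.

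The medians of the present antibodies kept the order they had in regions of all 4, at a lower level. Where Abcam133737 was missing, the median pileup per 10000000 tags was 5.58 for Millipore07-601, 4.30 for Abcam76013 and 5.36 for Abcam133638. Where Abcam76013 was missing, it was 4.30 for Abcam133737, 5.58 for Millipore07-601 and 5.36 for Abcam133638. The regions without Millipore07-601 were lower, at 4.08 for Abcam133737, 4.09 for Abcam76013 and 5.14 for Abcam133638. Those without Abcam133638 had 4.08 for Abcam133737, 5.34 for Millipore07-601 and 4.30 for Abcam76013. In regions of all 4 antibodies the same medians were 9.76 for Millipore07-601, 9.16 for Abcam133638, 6.67 for Abcam76013 and 6.66 for Abcam133737. The weakest present peak was that of Abcam76013 in 71.4% of regions without Abcam133737, and that of Abcam133737 in 72.4% of regions without Abcam76013. In these sets the strongest was that of Millipore07-601 in 53.9% and 52.7%, so the order of the medians did not hold in every region. The antibodies also lay closer together here. The ratio of Millipore07-601 to Abcam76013, in pileup per 10000000 tags, had a median of 1.27 (quartiles 1.08 and 1.49) in the 4321 regions without Abcam133737 and of 1.47 (quartiles 1.27 and 1.67) in regions of all 4.

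**Figure D1:**
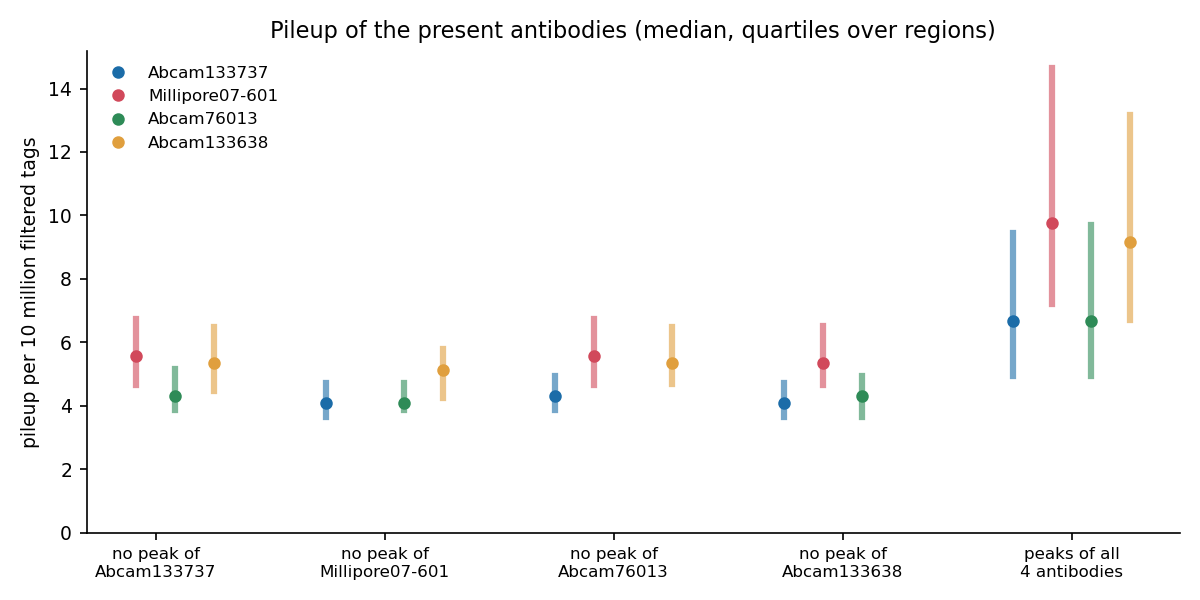
Pileup of each present antibody per 10000000 filtered tags (vertical axis), as the median over regions (point) and the quartiles (bar), for regions grouped by the antibody without a peak and for regions of all 4. All medians of the regions missed by 1 antibody lie between 4.08 and 5.58, below the 6.66 to 9.76 of regions of all 4.

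The peaks in these regions came from different heights of the long and the short lists. Each list was split into deciles by pileup. Of the lowest decile of Abcam133737 peaks, 28.0% lay in a region of exactly 3 antibodies, and of the highest decile 0.269%. The shares of Abcam76013 were 27.9% and 0.169%. In the longer lists the share rose first and then fell. For Millipore07-601 it was 17.7% in the lowest decile, 25.7% in the fifth decile and 0.121% in the highest. For Abcam133638 it was 15.0%, 27.0% and 0.121%. In the lowest decile of the long lists, 10.2% of Millipore07-601 peaks and 9.57% of Abcam133638 peaks lay in regions of all 4, against 42.0% for Abcam133737 and 41.3% for Abcam76013.

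**Figure D2:**
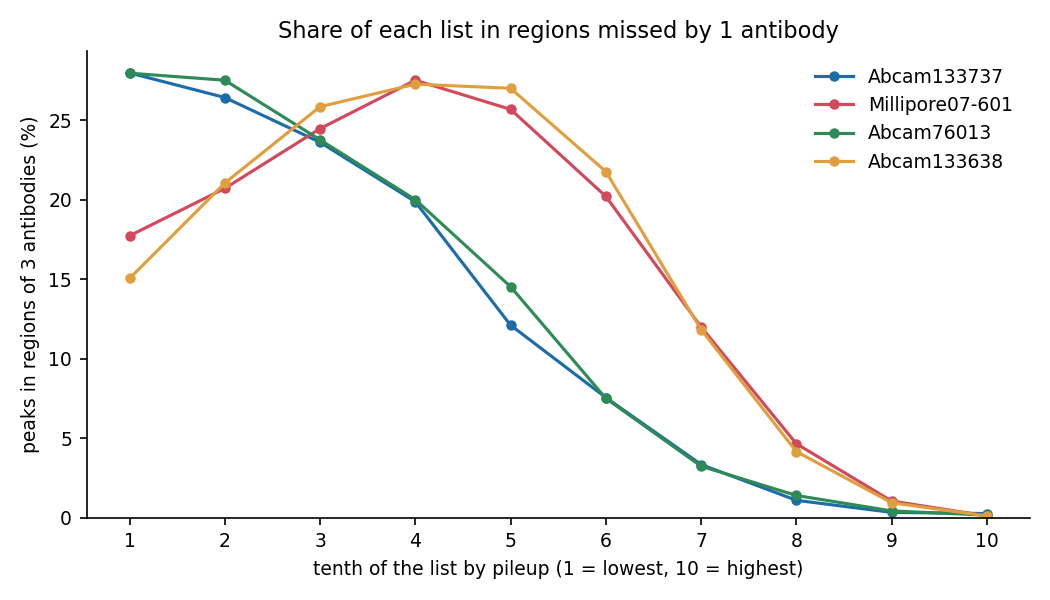
Share of the peaks of each list (vertical axis, percent) that lie in a region of exactly 3 antibodies, by decile of the list in pileup (horizontal axis, 1 lowest and 10 highest). The shorter lists of Abcam133737 and Abcam76013 fall from 28.0% and 27.9% in the lowest decile, while the longer lists peak in the middle deciles.

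The edge of the rule was thinly populated. Of the 9284 regions, 4 had a peak of the missing antibody at most 10 bp away, with a mean fold of 3.21 to 5.13. On the other side, 3 regions counted with all 4 antibodies owed this to an overlap of at most 10 bp, with a mean fold of 3.87 to 4.07. The nearest peak of the missing antibody lay within 100 bp of 137 regions (1.48%), within 1 kb of 1914 (20.6%) and within 10 kb of 5657 (60.9%), at a median of 6.06 kb. This median was 6.58 kb for Abcam133737, 6.06 kb for Abcam76013, 4.89 kb for Abcam133638 and 3.14 kb for Millipore07-601.

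The place of the regions in the genome differed with the missing antibody, although all of them together resembled regions of all 4. Among all 9284, the mean summit lay within 1 kb of an end of a protein-coding gene (its transcription start or its transcription end) in 20.8% (interval 20.0% to 21.7%), against 22.5% of regions of all 4 and 18.5% of regions of 2 or of 1 antibody. A further 47.5% lay inside a gene and 31.7% outside genes. The gene table gives no exons, so exons, introns and untranslated regions were not told apart. Gene ends held 29.1% of the regions without Millipore07-601 (interval 25.0% to 33.4%) and 24.0% of those without Abcam76013 (22.7% to 25.3%). They held 17.9% of those without Abcam133737 (16.8% to 19.1%) and 10.6% of those without Abcam133638 (7.77% to 14.0%). These intervals cover counting error only, and regions of 1 library are not replicates.

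Start sites showed the same order. The mean summit lay within 100 bp of a listed transcription start in 10.8% of the regions without Millipore07-601 (interval 8.13% to 14.1%), 10.6% of those without Abcam76013 (9.66% to 11.6%), 6.97% of those without Abcam133737 (6.22% to 7.79%) and 1.56% of those without Abcam133638 (0.574% to 3.36%). For regions of all 4 antibodies it was 9.72%. The median distance to the nearest gene end was 6.39 kb without Millipore07-601, 9.78 kb without Abcam76013, 12.5 kb without Abcam133737 and 15.2 kb without Abcam133638.

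The order of these shares was the same in each fold quartile of the 9284 regions. In the lowest quartile gene ends held 28.1% of those without Millipore07-601, 27.4% without Abcam76013, 21.1% without Abcam133737 and 12.8% without Abcam133638. In the highest quartile these shares were 28.0%, 22.9%, 15.5% and 7.14%, on 25, 1094, 1160 and 42 regions. With 10000 peaks per list they were 35.8%, 25.2%, 22.1% and 9.44%.

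The low share of regions without Abcam133638 depended on how peaks were joined. When summits within 100 bp were joined, it was 30.7% of 909 regions, and with a reciprocal overlap of 50% it was 35.4% of 840, above the shares for the other 3 missing antibodies under that rule. Those rules count a region as missed even where a peak of the antibody overlaps it. Of the 909 regions 535 overlapped an Abcam133638 peak, with 44.5% at gene ends, and the other 374 had 10.96%. Of the 840 regions 472 overlapped such a peak, with 54.4% at gene ends, and the other 368 had 10.9%. Leaving out the overlapped regions brings back the condition of the 1 bp rule. The return to a share near 10.6% therefore follows from that filter and is no separate check.

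**Figure D3:**
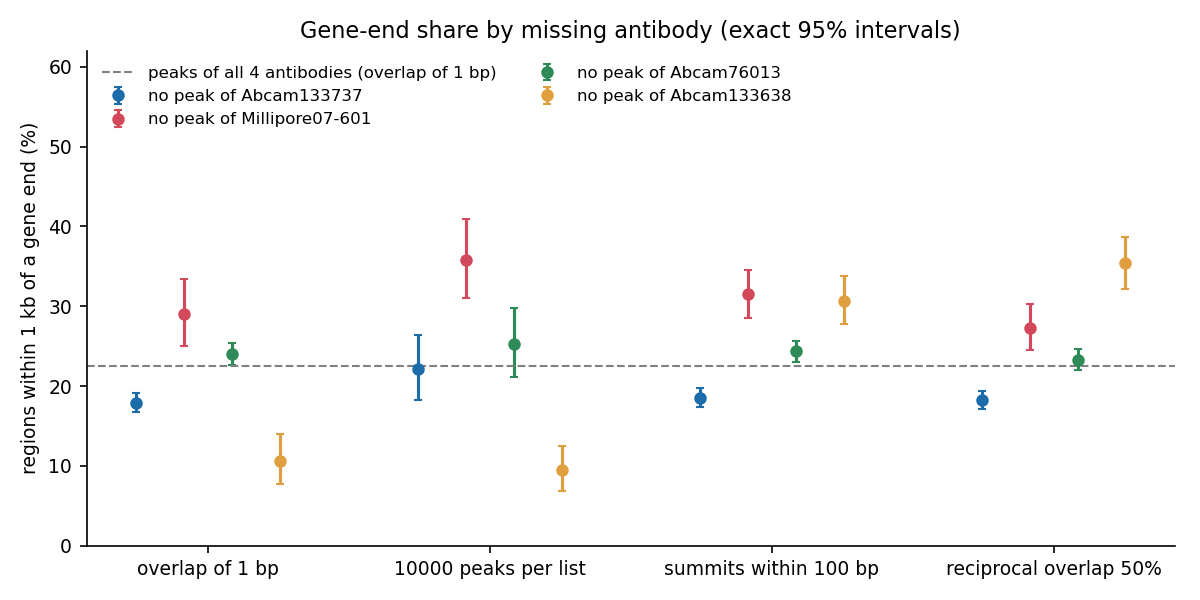
Share of regions within 1 kb of a gene end (vertical axis, percent, with exact 95% intervals) by the antibody without a peak, under 4 ways to define the regions. The dashed line is the 22.5% of regions of all 4 antibodies; the share without Abcam133638 is 10.6% with a 1 bp overlap, and 30.7% and 35.4% with the joining rules on the right.

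Regions with a peak of 1 antibody were sorted by the same peak calls, so their values are also a description. Of 7729 regions with a peak of Millipore07-601 alone, 10.6% lay at gene ends (interval 9.89% to 11.3%). Of 7560 with a peak of Abcam133638 alone, 26.9% did (25.9% to 28.0%). In regions of all 4 antibodies the ratio of Millipore07-601 to Abcam133638, in pileup per 10000000 tags, had a median of 0.983 at gene ends, 1.14 inside genes and 1.15 outside. In the regions without Abcam133737 it was 0.943, 1.09 and 1.08 at these places, and in those without Abcam76013 it was 0.941, 1.07 and 1.08. Millipore07-601 thus stood lower against Abcam133638 at gene ends than elsewhere in each of these sets.

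Promoters with such a region were rich in G and C. RefSeq gives windows of 250 bases before to 50 after the start for 21019 promoters, and 1337 of them overlapped a region missed by 1 antibody. Their median GC content was 62.7%, against 56.7% for all windows and 61.7% for the 6185 that overlapped a region of all 4. For windows with regions of 2 and of 1 antibody it was 62% and 63.7%, so this richness was not particular to them. CTCAAG, a 6-base motif searched on both strands (CTTGAG on the other), stood in 11.7% of the 1337 windows (interval 10.0% to 13.5%), in 15.0% of all windows and in 16.6% of the windows with a region of all 4. Around the mean summit, in 121 bases inside the window, the motif was found at 43 of 692 regions missed by 1 antibody (6.21%, interval 4.53% to 8.28%). It was found at 10.8% of 3043 regions of all 4 (9.73% to 12.0%) and in 6.32% of the 121 bases in the middle of all windows. Regions of 2 and of 1 antibody had it at 4.69% and 5.63%, so a low share was not particular to regions missed by 1. By missing antibody the shares were 5.18% without Abcam133737 (13 of 251), 6.20% without Abcam76013 (24 of 387), 8.89% without Millipore07-601 (4 of 45) and 22.2% without Abcam133638 (2 of 9), and the last 2 intervals ran from 2.48% to 21.2% and from 2.81% to 60.01%. Regions away from starts were not searched.

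The regions lay near regions of all 4 antibodies about as often as regions of fewer antibodies did. Their median distance to the nearest region of all 4 was 8.52 kb, against 8.02 kb for regions of 2 antibodies, 8.32 kb for regions of 1 and 7.24 kb from a region of all 4 to the next. Within 1 kb lay 16.7% (interval 15.9% to 17.5%), within 10 kb 53.4% (52.4% to 54.4%) and beyond 50 kb 13.5%. For regions of all 4 these shares were 17.8%, 57.3% and 11.1%. With 10000 peaks per list, which leave fewer regions of all 4, 22.7% lay within 10 kb. The median was 7.43 kb without Millipore07-601, 8.14 kb without Abcam76013, 8.92 kb without Abcam133737 and 10.6 kb without Abcam133638. The median fold differed little with distance, at 4.57 for the 1550 regions within 1 kb and 4.79 for the 1252 beyond 50 kb. Location did differ, though the gene-end share did not fall steadily with distance. It was 30.4% within 1 kb, 16.8% from 1 to 10 kb, 21.6% from 10 to 50 kb and 18.1% beyond 50 kb. Outside genes lay 25.4%, 30.4%, 31.6% and 42.8% in the same order.

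**Figure D4:**
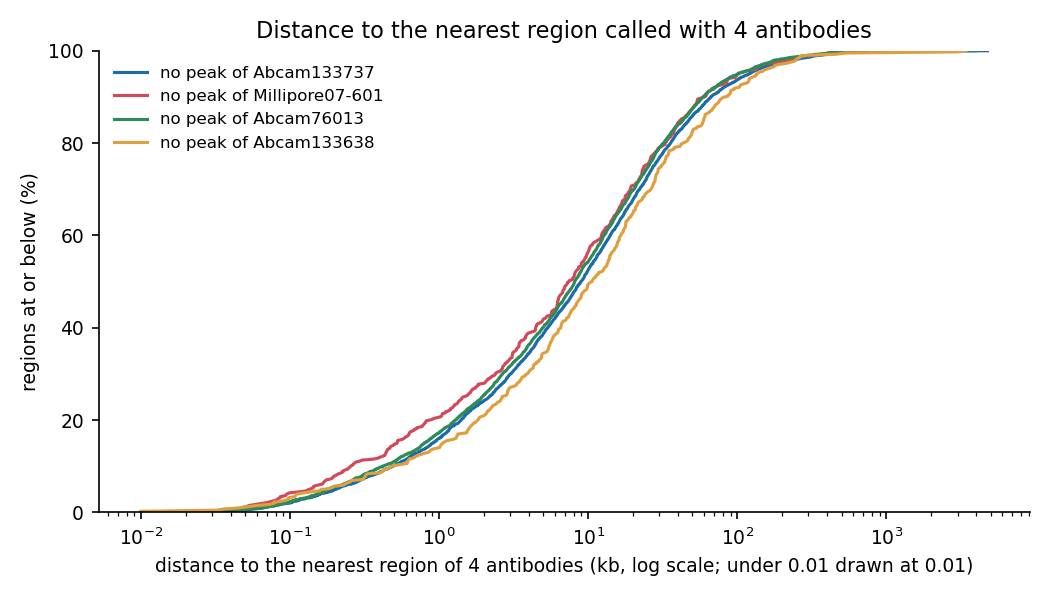
Cumulative share of regions (vertical axis, percent) by distance to the nearest region of all 4 antibodies (horizontal axis, kb on a log scale), with a line for each missing antibody. The lines cross the middle at 7.43 kb without Millipore07-601, 8.14 kb without Abcam76013, 8.92 kb without Abcam133737 and 10.6 kb without Abcam133638.

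Of the 9284, 5479 lay in 3761 protein-coding genes, and 75.5% of the 5479 (interval 74.3% to 76.6%) lay in a gene that also contained a region of all 4. This share was 76.1% for regions of 2 antibodies inside genes and 76.0% for regions of 1. Of the 3761 genes themselves, 2563 (68.1%) contained a region of all 4. Foxp1, a forkhead factor of lung epithelium, held 13 beside 25 regions of all 4, in a gene of 597 kb. Nav2, a neuron navigator gene, also held 13, beside 40 regions of all 4 in 651 kb. Mecom, a zinc finger transcription factor, held 11 beside 24. The next genes held 8 each: Arhgef28, Magi1, Ror1, Vps13d and Wwc1, of which Wwc1 encodes KIBRA, an activator of the Hippo pathway. Sox6 held 7 beside 3 of all 4. Among genes with no region of all 4, Ggnbp2 and Lpgat1 had the most, with 4 each. These genes were picked for their counts, and long genes hold more regions of any kind.

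Some of the regions formed runs with gaps of at most 50 kb. The run with the most members had 16 regions in 278 kb at chr8:70544213-70821905, over Ell, Jund, Pik3r2 and neighbours, with a median fold of 4.37. Of the 16, 8 lacked Abcam133737, 7 Abcam76013 and 1 Millipore07-601. A run of 13 at chr6:31082106-31206451 covered Klf14 and Mkln1, and 9 of its regions lacked Abcam133737. All merged regions in these spans were not counted, so the runs do not show that regions missed by 1 antibody cluster. Across chromosomes, regions of exactly 3 antibodies made up between 12.0% (chromosome X) and 14.4% (chromosome 11) of the regions, and none of the 6 on chromosome Y.

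The highest pileups among these regions came from places with a high local background. That background was computed back from the fold and the pileup, with 1 tag added to both, and its median was 3.81 tags. In the region in Aida, without Abcam133638, the pileup was 267 tags with Abcam133737, 253 with Millipore07-601 and 277 with Abcam76013, on a mean background of 193 tags, so that the mean fold was 1.38. The region in Vps45, a gene of vesicle transport, had 113, 93 and 109 tags with these antibodies on a mean background of 69.6 tags. The highest regions without Abcam76013 and without Millipore07-601 both lay in Sfi1, a centrosome gene, with mean folds of 1.57 and 1.68 on backgrounds of 76.1 and 68.6 tags. Regions in Sp110 and Sp140, which encode nuclear body proteins of immune cells, lacked Millipore07-601 at mean folds of 2.29 and 2.56. The other regions of highest pileup were near Btbd16 and Pisd without Millipore07-601 (mean folds 2.63 and 2.57), 5.16 kb from the end of Sfi1 without Abcam76013 (2.97), and near N6amt1, near Epb41l4a and in C130026I21Rik without Abcam133638 (1.99, 3.21 and 2.28). Over 50 kb from a gene end, Millipore07-601 was missing at regions nearest Scaf8 (39, 37 and 36 tags for Abcam133737, Abcam76013 and Abcam133638) and Olfr161 (39, 38 and 34). A mean background over 5 tags was found for 1012 regions (10.9%), against 10.5% of regions of all 4. Without them the share within 10 kb of a region of all 4 was 50.3%, and the share at gene ends was 21.0%.

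The highest regions without Abcam133737 included a region 395 kb from the nearest gene end, that of Gli3, a transcription factor of hedgehog signalling. Millipore07-601 gave it 65 tags, Abcam76013 48 and Abcam133638 55, at a mean fold of 5.58 on a mean background of 9.25 tags. The region in Adcy5, an adenylyl cyclase gene (chr16:35216760-35217108), had 51, 45 and 58 tags and a mean fold of 9.33, the highest without Abcam133737, on a background of 4.63. The region in Tns1, which encodes the focal adhesion protein tensin, had 57, 45 and 54 tags on a background of 12.6 and lay 1.87 kb from an Abcam133737 peak. By pileup the list also held regions near Fcgr3, near Mex3c and in D7Ertd443e, with mean folds of 3.24, 2.22 and 7.97 on backgrounds of 21.0, 25.2 and 5.95 tags. At gene ends the highest after Pias3 were Add1, for the cytoskeletal protein adducin, with 46, 27 and 59 tags, and Nnt, for a mitochondrial transhydrogenase, with 48, 36 and 46.

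Without Abcam76013, Sox6 again had a high region, with 63 tags for Abcam133737, 90 for Millipore07-601 and 83 for Abcam133638, 59.8 kb from the nearest region of all 4. A region near Lrig2 had 63, 79 and 95 tags, and a region 215 kb from Plekhb2 had 47, 73 and 52. Mean folds of the Sox6, Lrig2 and Plekhb2 regions were 4.98, 4.34 and 6.51, on mean backgrounds of 15.4, 17.5 and 7.96 tags. In Nfia, a nuclear factor I gene, a region 195 kb from the gene end had 46, 61 and 54 tags, and a region of all 4 lay 0.767 kb from it. At gene ends the region at Wbp1l had 37, 46 and 47 tags. The region of highest mean fold among all 9284, at 9.61, also lacked Abcam76013. It lay in Nedd4, a ubiquitin ligase gene, at chr9:72665456-72665714, with 35, 55 and 49 tags. Regions nearest Hes1, Irx5 and Ehf, which encode transcription factors, had mean folds of 9.49, 8.74 and 8.62. They lay outside genes, 54.6 kb, 119.6 kb and 22.3 kb from the ends of these genes. These regions, with Adcy5 as the highest fold without Abcam133737, were picked by fold after values were seen, as were those in Ssbp3 and Gphn.

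The smaller sets reached lower folds. Without Millipore07-601 the highest mean fold was 6.12, in Ssbp3 (chr4:106964859-106965094), with 33 tags for Abcam133737, 26 for Abcam76013 and 33 for Abcam133638, and a Millipore07-601 peak began 0.115 kb away. At gene ends Slc30a4, for a zinc transporter, had 24, 31 and 42 tags, and the shared end of Ciapin1 and Coq9 had 29, 27 and 34. Without Abcam133638 the highest mean fold was 7.11, in Gphn, the gephyrin gene, with 31 tags for Abcam133737, 52 for Millipore07-601 and 25 for Abcam76013. At gene ends Eef2, for a translation elongation factor, had 34, 23 and 42 tags and lay 0.121 kb from a region of all 4, Il13ra2, for a decoy receptor of interleukin 13, had 28, 35 and 24, and Shmt1 had 27, 34 and 23. The mean folds of these 3 were 2.89, 4.93 and 5.55.

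A few regions stood far from any region of all 4. The farthest lay 4.76 Mb away, near Cdh10, a cadherin gene (chr15:18331034-18331334), and lacked Abcam133737. It had 54 tags with Millipore07-601, 22 with Abcam76013 and 25 with Abcam133638, so 1 antibody stood well above the others. A region at the end of Diaph2 without Abcam76013 lay 3.99 Mb away, with 16, 16 and 28 tags for Abcam133737, Millipore07-601 and Abcam133638. A region in Pcdh7, a protocadherin gene, without Abcam133638 lay 3.40 Mb away, with 23, 22 and 19 tags. Without Millipore07-601 the farthest was 467 kb from the end of Diaph2 and 2.80 Mb from a region of all 4, with 24, 24 and 25 tags.

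Genes of the lung were set against 15 lists, of which 388 of 390 genes were found. Of all 21627 protein-coding genes, 24.5% had a region of exactly 3 antibodies within 10 kb of an end. Among listed genes 144 of 388 had one (37.1%). The shares were 15 of 30 alveolar type 1 genes, 15 of 30 alveolar type 2 genes, 20 of 32 epithelial junction and adhesion genes, 21 of 35 epithelial signalling genes, 13 of 25 Hippo pathway genes and 12 of 30 epithelial transcription factor genes. Lists of other cells of the lung had fewer: 4 of 25 mesenchymal genes, 6 of 25 endothelial genes and 3 of 25 immune cell genes. Their intervals (4.54% to 36.1%, 9.36% to 45.1% and 2.55% to 31.2%) all include the 24.5% of all genes. Among the lists before these, only that of the transcription factor genes had such an interval (22.7% to 59.4%). The airway lists had 3 of 14 secretory and 2 of 17 ciliated genes, and the gastrointestinal list 6 of 25. Genes of all cells had 7 of 30 for ribosomal proteins, 9 of 24 for core maintenance and 9 of 25 for replication and mitosis. Regions of all 4 were near 26 of 30 type 1 and 28 of 30 type 2 genes, and near 11824 of the 21627 genes (54.7%). They were also near all 30 ribosomal protein genes and 13 of 17 ciliated genes. In these lists the share with a region of 3 was not above that of all genes. Its intervals (9.93% to 42.3% and 1.46% to 36.4%) include the 24.5%.

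A gene with a region of exactly 3 antibodies and none of all 4 within 10 kb of an end was less common. Of all protein-coding genes 6.15% (1329) were of this kind, and of listed genes 22 of 388 (5.67%, interval 3.59% to 8.46%). They were 2 of 30 type 1 genes, 2 of 30 type 2 genes, 1 epithelial transcription factor gene, 1 junction gene, 1 Hippo pathway gene and 1 signalling gene. Among other lists they were 4 of 25 replication and mitosis genes, 3 of 25 endothelial genes, 2 mesenchymal genes, 2 secretory genes, and 1 each of the immune, gastrointestinal and core maintenance genes. No ribosomal protein gene and no ciliated gene was of this kind. With windows of 2 kb the count was 27, and with 50 kb it was 11.

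For the type 1 genes these were S100a6 and Lmo7. At S100a6, a calcium-binding protein gene, a region 0.998 kb from the end (chr3:90615412-90615906) had 23 tags with Abcam133737, 29 with Millipore07-601 and 29 with Abcam133638, and lacked Abcam76013. At the end of Lmo7, a LIM domain gene, the same antibodies gave 16, 22 and 22 tags. For the type 2 genes they were Lyz2, the lysozyme gene that type 2 cells share with macrophages, and Acsl4, a fatty acid activating enzyme. Between Lyz2 and its neighbour Lyz1, a region without Abcam76013 (chr10:117284569-117284823) had 24, 27 and 30 tags. The next region, 0.206 kb on, lacked Abcam133737 and had 18 tags with Millipore07-601, 19 with Abcam76013 and 29 with Abcam133638. Each antibody thus had a peak 0.206 kb or 0.238 kb from the region in which it was missed. Acsl4 had 17, 19 and 24 tags with Abcam133737, Millipore07-601 and Abcam133638.

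At Foxp1, 2 regions at the end of the gene lacked Abcam133737. The higher one (chr6:99521913-99522226) had 28 tags with Millipore07-601, 25 with Abcam76013 and 50 with Abcam133638, and an Abcam133737 peak lay 0.240 kb away. St14, which encodes the epithelial protease matriptase, had 24, 21 and 30 tags at its end for Abcam133737, Millipore07-601 and Abcam133638. Lgr4, an R-spondin receptor gene, had 19, 28 and 23 with these antibodies. Mob1a, a Hippo pathway kinase activator, lacked Abcam133737 and had 14 tags with Millipore07-601, 21 with Abcam76013 and 35 with Abcam133638. Gabrp and Spdef of the secretory list lacked Abcam133737 and Abcam133638. Spdef, a goblet cell transcription factor gene, had 18, 18 and 19 tags, which is among the lowest deciles of each list.

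The mitosis genes had their regions at gene ends. Cdk1, the kinase that drives entry into mitosis, had 23 tags with Abcam133737, 26 with Millipore07-601 and 34 with Abcam133638 (chr10:69352809-69353213). Plk1, another mitotic kinase, had 21, 24 and 25. Birc5 (survivin) and the spindle checkpoint kinase gene Ttk lacked Abcam133737, with 28, 24 and 35 tags and 18, 24 and 32 tags for the other 3 antibodies. Among genes of other cell types, the endothelial genes Pecam1 and Tek lacked Millipore07-601, and Egfl7 lacked Abcam76013. Pecam1 had 15 tags with Abcam133737, 17 with Abcam76013 and 22 with Abcam133638. Gli1, a hedgehog target, had 19, 31 and 26 tags without Abcam76013, and Tagln, a smooth muscle gene, had 17, 17 and 29. The region counted for Tagln was 0.918 kb from it and nearest the end of Sidt2. The T cell gene Cd3g had a region nearest the end of Ube4a instead, and the region counted for the fatty acid binding protein gene Fabp2 was 6.21 kb from its end. B2m, the light chain of class I molecules, had 3 such regions, all without Abcam133737, with 27, 22 and 21 tags at its end for the other 3 antibodies. The others lay 5.27 kb and 7.60 kb from B2m and were nearest the end of Trim69. The one 7.60 kb away had the highest mean pileup, with 28, 30 and 33 tags.

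**Figure D5:**
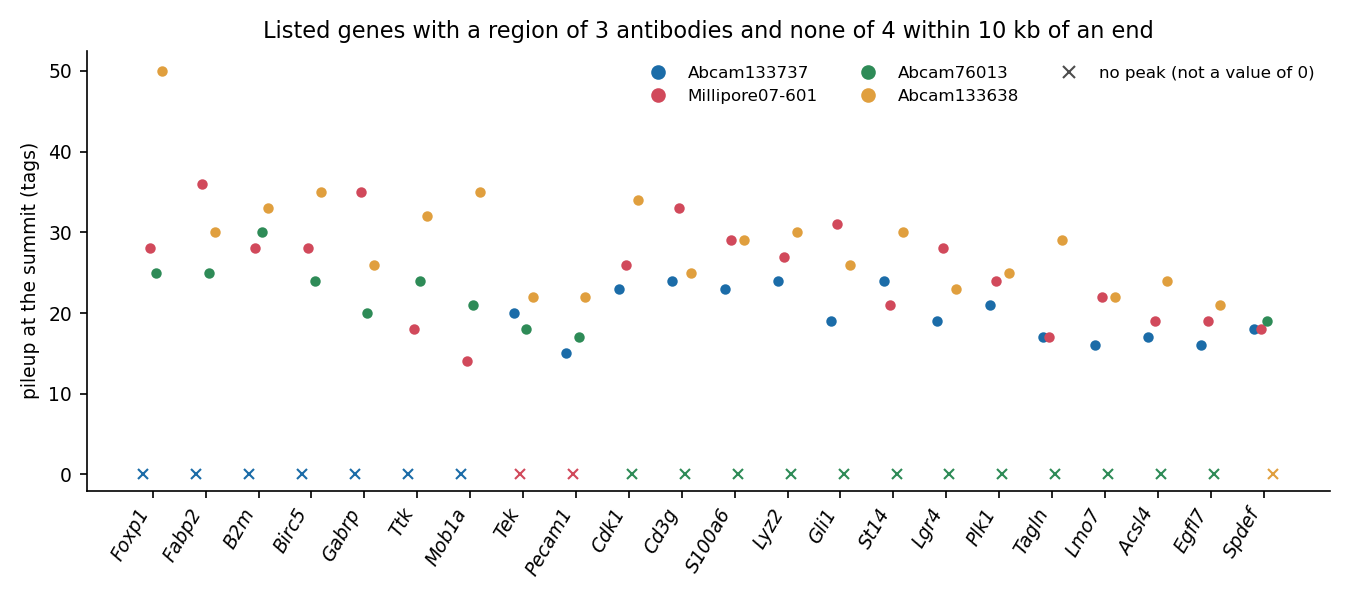
Pileup at the summit in tags (vertical axis) of each present antibody for the highest region of exactly 3 antibodies at the 22 listed genes with no region of all 4 within 10 kb of an end; a cross marks the missing antibody and is not a value of 0. Values run from 14 tags (Millipore07-601 at Mob1a) to 50 tags (Abcam133638 at Foxp1). The region drawn for B2m lies 7.60 kb from it and is nearest the end of Trim69. Those for Tagln and Cd3g are nearest the ends of Sidt2 and Ube4a.

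At other listed genes the region stood beside regions of all 4. Near Aqp5, the water channel gene of type 1 cells, a region without Abcam76013 had 27 tags with Abcam133737, 53 with Millipore07-601 and 38 with Abcam133638, 1.13 kb from a region of all 4. In Lmna, the lamin A gene, it had 47, 38 and 31 tags. At the type 2 genes Lpcat1 and Ctsh the values were 28, 35 and 35 tags and 16, 31 and 35 tags. In Erbb3, a receptor of the EGF receptor family, a region without Abcam133737 lay 0.048 kb from a region of all 4, with 38 tags for Millipore07-601, 23 for Abcam76013 and 35 for Abcam133638. At Bub1, a spindle checkpoint gene, a region without Abcam76013 had 27, 36 and 27 tags, 0.151 kb from a region of all 4. The airway gene Scgb1a1, a club cell marker, had a region 0.141 kb from its end with 21, 26 and 19 tags, also without Abcam76013.

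The highest regions of the remaining lists lacked 1 of the same 2 antibodies, Abcam133737 or Abcam76013, apart from that of Eef2. These 2 were the missing ones in 90.6% of all 9284 regions, so this is no trait of the listed genes. Without Abcam133737, the Hippo target Ccn1 had 54 tags with Millipore07-601, 25 with Abcam76013 and 30 with Abcam133638 at a region 7.22 kb from its end, and Frmd6, a FERM domain gene of the same list, had 47, 33 and 52. Without Abcam76013, the epithelial splicing factor gene Esrp1 had 33 tags with Abcam133737, 38 with Millipore07-601 and 30 with Abcam133638. Nfib, a nuclear factor I gene of the transcription factor list, had 22, 29 and 38. The DNA replication gene Cdc6 had 25, 33 and 43, and the heat shock protein gene Hspa8 had 28, 33 and 32. Of the lists of other cell types, the endothelial gene Sox18 had 20, 17 and 30 tags. The macrophage gene Cd68 lacked Abcam133737, with 22, 22 and 23 tags for Millipore07-601, Abcam76013 and Abcam133638. Of the ribosomal protein genes, Rps24 lacked Abcam133737 and had 47, 37 and 41 tags. Rpl3 lacked Abcam76013 and had 32 tags with Abcam133737, 47 with Millipore07-601 and 42 with Abcam133638. The regions counted for Cdc6, Rps24 and Rpl3 lay 2.124 kb, 3.495 kb and 5.26 kb from these genes. They were nearest the ends of Rara, Polr3a and Syngr1.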

How the data were processed

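ChIP-seq peak lists of 4 antibodies against NKX2-1, 1 library each, were analysed. Peaks were called by the authors against 1 input (10653749 filtered tags) with MACS 2.1.2 at a q cutoff of 0.05, per the file headers. Per the submitters' processing notes, the build was mm10 and FastQC, Trimmomatic, Bowtie, SAMtools and deepTools were also used. Each deposited line gives a pileup signal in tags, a fold enrichment (a ratio over local background), and the −log10 of the p-value and of the q-value. Where the local background is the constant genome level, the fold follows the pileup. Pileup was divided by filtered tags of the library and multiplied by 10000000.

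Peaks sharing at least 1 bp were merged, and the highest peak of an antibody stood for it in a region. Genes were 21627 protein-coding genes of RefSeq (GRCm38.p6). Start sites were known for 17273 of them. The peak lists were merged with pandas 2.3.3, and intervals were computed with scipy 1.17.1. Merging and distances were tested on simulated intervals.

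No test between antibodies was made, since each has 1 library, and intervals cover counting error only. The members, gene lists and rules were chosen with earlier results of these data known. Named by rule were, for each missing antibody, the 5 regions of highest mean pileup per 10000000 tags, the 3 highest at gene ends, the 2 highest over 50 kb from a gene end and the 2 farthest from a region of all 4. For each gene list they were all genes with a region of 3 antibodies and none of all 4 within 10 kb of an end, and the 2 genes with the highest region. Some regions that this rule names are not described in the text. Sequences were limited to regions with a mean fold of at least 3 and named genes, which was set after values were seen. No genome of the build was used, so the motif was searched in promoter windows, over 121 bases in place of the planned 200. Alternatives were stricter peaks, equal list lengths, distinct intervals, other joining rules and other windows. A limit on local background was added after seeing the data.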

Additional observations from a re-analysis of the deposited data

How the results depend on the processing

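Of 97 values recomputed, 50 stayed within the counting interval of the reported value or, for counts, within 1.5 times of it, and 47 moved. The cause of these moves was not tested except where stated. The number of regions with exactly 3 antibodies was 6011 with a fold of at least 5 and 1655 with 10000 peaks per list, which enter fewer peaks. The shares lacking Abcam133737, Millipore07-601, Abcam76013 and Abcam133638 were 48.4%, 3.19%, 45.4% and 3.03% with a −log10 q of at least 5; 48.9%, 2.53%, 45.6% and 2.96% with a fold of at least 5; 25.9%, 22.8%, 24.4% and 26.9% with 10000 peaks per list; 42.3%, 8.98%, 40.03% and 8.69% with summits within 100 bp; and 42.6%, 9.20%, 39.9% and 8.31% with a reciprocal overlap of 50%. The share at gene ends was 21.8%, 23.6%, 22.6%, 23.1% and 22.5% under these 5 settings in the same order, and 27.1% with a window of 2 kb. By missing antibody in the order above, the window of 2 kb gave 24.4%, 37.0%, 30.1% and 15.0%. Without Abcam133737 the gene-end share was 19.5%, 21.0% and 22.1% under the q, fold and 10000-peak settings. It was 35.8% without Millipore07-601 with 10000 peaks, 26.8% without Abcam76013 with a fold of at least 5, and 30.7% and 35.4% without Abcam133638 under the summit and reciprocal rules, which admit regions that the antibody's peaks overlap. The share within 10 kb of a region of all 4 was 48.7%, 39.4% and 22.7% under the q, fold and 10000-peak settings, 52.3% with gaps of up to 100 bp joined and 50.3% on low background. It was 86.5% with 50 kb and 16.7% with 1 kb. Listed genes with a region of 3 and none of all 4 numbered 11 with 50 kb. Distinct intervals gave the same values, which are counted among the 50. This outcome was fixed, since the highest peak of an antibody already stood for it in a region. No paired analysis was possible because each antibody has 1 library and no test was made.

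With 1 library per antibody, no difference can be separated from the spread between libraries. The pileup of the missing antibody at these regions was not analysed here, so a missed peak can be a signal just under the threshold or none. The input had 10653749 filtered tags against 43031331 to 46547989 in the antibody libraries, which limits how well the local background, and with it the fold, is known. Location rests on gene ends, and the motif counts on regions at listed starts.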

Other observations

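Some regions missed by different antibodies lay side by side. Of the 9284 regions, 437 (4.71%) had another region of exactly 3 antibodies within 1 kb. The nearest of these lacked another antibody in 272 of the 437 cases (62.2%), and 58.5% of all pairs among the 9284 regions lack different antibodies, so neighbours differed about as often as any pair. They formed 223 nearest pairs, of which 93 lacked Abcam133737 in a region and Abcam76013 in the other. In the pair of highest fold, in the potassium channel subunit gene Kcne3, a region without Abcam133737 (chr7:100178905-100179202, mean fold 9.22, with 46 tags for Millipore07-601, 30 for Abcam76013 and 52 for Abcam133638) lay 132 bp from a region without Millipore07-601. In Spint2, an epithelial protease inhibitor gene, regions without Abcam76013 and without Abcam133737 lay 415 bp apart, and the former had a mean fold of 6.27. These genes were chosen after their values were seen.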
